A study of Mus musculus with 7 samples.

Results

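The 40 genes described here are used as marks of cells that copy their DNA or divide: 14 genes of S phase, 25 genes of the G2 and M phases, and Stmn1. They were taken by symbol from a fixed list whose rule uses no measured value, though it was chosen with earlier results of these data known. All 40 were found among the 27998 genes of the deposited tables. RNA was counted cell by cell (10x Genomics, 3' v3 chemistry) in the stromal vascular fraction, the non-adipocyte cells freed from fat by collagenase, from inguinal subcutaneous fat of female C57BL/6N mice. The 4 young libraries come from mice of 11 to 12 weeks by their labels (3 months in the series' design text), and the 3 old libraries from mice of 18 months. No genetic change or treatment is named for either age. Each library is read as 1 mouse, since no label says if mice were pooled, and p-values measure the spread between these libraries.

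The tables held 45514 barcodes and between 52336665 and 99516882 unique molecular identifiers (UMIs, counts of single RNA molecules) per library, and 37463 cells were kept. Median UMIs per kept cell were 9276, 12448, 13714.5 and 12682 at the young age and 7898, 7045 and 5986 at the old one, so every old library was shallower per cell than every young one. Clusters were made without the 40 genes, other cell cycle genes and histone genes, so that dividing cells fall into their own lineage. They were named from marker genes, and a class name stands for cells like that type. Of 40 clusters, 10 stayed unnamed and held 4073 cells (10.7% ± 1.63 (SD, n = 4) of kept young cells and 11.2% ± 3.00 (SD, n = 3) of kept old cells). Young replicate 3 had few cells in several classes, 71 endothelial cells among them, and young replicate 1 had 71 T cells and 110 macrophages.

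A dividing cell makes these RNAs in waves. At the start of S phase Cdc6 and Cdt1 load the MCM helicase (Mcm2 to Mcm7) onto replication origins, Gins2 is part of the active helicase, Pcna is the sliding clamp of DNA polymerase, and Rrm1, Rrm2, Tyms and Tk1 supply nucleotides. E2F factors drive this wave in the textbook account. The later wave holds Mki67, the antigen of the Ki-67 stain, Top2a, which untangles chromosomes, the mitotic kinase Cdk1 with its cyclins, the Aurora and Polo kinases, the spindle checkpoint, kinetochore proteins, mitotic motors and the destruction machinery that ends mitosis. In the textbook account that wave is repressed in resting cells by the DREAM complex through CHR elements and is switched on through CHR and CCAAT boxes. Adipose progenitors and resident macrophages are both known to divide in fat, mostly at a low rate.

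The promoters of 4 G2/M genes and 2 S phase genes are shown because the S phase and G2/M genes differ in these elements. Each is the 250 bases before the RefSeq start on build GRCm38.p6, written 5′ to 3′ on the gene's strand. Capitals mark, on either strand, the letters searched for each element. For CHR these were TTTGAA, with TTCGAA as the other spelling allowed. The box of that name was searched as CCAAT itself. For E2F they were TTCCCGC, and a second form of the site with the letters TTGGCGC was counted too. Mki67 lies at chr7:135716380-135716629 (minus strand), Cdk1 at chr10:69352913-69353162 (minus), Ccnb1 at chr13:100786487-100786736 (minus), Plk1 at chr7:122159185-122159434 (plus), Mcm5 at chr8:75109259-75109508 (plus) and Rrm2 at chr12:24708004-24708253 (plus).
Mki67: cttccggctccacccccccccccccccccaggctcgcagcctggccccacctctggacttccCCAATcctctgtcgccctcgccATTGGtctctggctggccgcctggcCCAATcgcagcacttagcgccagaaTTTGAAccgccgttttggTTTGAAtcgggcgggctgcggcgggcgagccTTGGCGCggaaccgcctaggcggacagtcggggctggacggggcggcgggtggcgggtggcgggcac
Cdk1: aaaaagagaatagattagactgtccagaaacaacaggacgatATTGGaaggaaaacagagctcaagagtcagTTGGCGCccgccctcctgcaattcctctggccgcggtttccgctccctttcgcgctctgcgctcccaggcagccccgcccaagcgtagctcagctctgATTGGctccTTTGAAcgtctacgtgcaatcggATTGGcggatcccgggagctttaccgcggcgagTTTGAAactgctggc
Ccnb1: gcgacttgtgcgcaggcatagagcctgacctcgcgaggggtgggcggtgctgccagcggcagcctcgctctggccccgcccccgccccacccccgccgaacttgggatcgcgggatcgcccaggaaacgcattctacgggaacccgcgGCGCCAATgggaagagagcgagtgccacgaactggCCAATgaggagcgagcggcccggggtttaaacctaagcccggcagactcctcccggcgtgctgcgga
Plk1: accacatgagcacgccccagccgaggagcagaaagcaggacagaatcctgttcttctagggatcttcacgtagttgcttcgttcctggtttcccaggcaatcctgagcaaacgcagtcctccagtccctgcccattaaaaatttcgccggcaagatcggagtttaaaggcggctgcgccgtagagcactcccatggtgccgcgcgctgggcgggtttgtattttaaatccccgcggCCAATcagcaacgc
Mcm5: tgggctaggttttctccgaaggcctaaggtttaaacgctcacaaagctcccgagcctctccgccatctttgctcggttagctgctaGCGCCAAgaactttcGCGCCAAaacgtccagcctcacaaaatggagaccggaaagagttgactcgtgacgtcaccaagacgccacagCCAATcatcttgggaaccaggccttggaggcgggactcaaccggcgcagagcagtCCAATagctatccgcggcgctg
Rrm2: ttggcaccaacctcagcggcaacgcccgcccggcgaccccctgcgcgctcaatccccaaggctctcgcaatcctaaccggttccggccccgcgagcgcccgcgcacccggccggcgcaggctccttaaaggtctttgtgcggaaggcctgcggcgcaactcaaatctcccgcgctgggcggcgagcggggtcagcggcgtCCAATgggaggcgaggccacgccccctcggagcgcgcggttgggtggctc

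Mki67 and Cdk1 each hold 2 CHR words, 3 CCAAT boxes and 1 E2F word in this stretch. Ccnb1 holds 2 CCAAT boxes, and its only E2F word shares bases with the first of them. Plk1 has its only CHR word after the start, outside the printed bases. Mcm5 carries 2 E2F words close together, and Rrm2 holds 1 CCAAT box and no E2F word of this spelling.

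The RefSeq table held a promoter for 33 of the 40 genes (12 S phase genes and 21 G2/M genes), with 250 bases before and 50 after the start. A CHR word stood in 17 of the 21 G2/M promoters (81.0%) and in 2 of the 12 S phase promoters (16.7%), against 19.4% of the promoters of all 27025 genes in the table. CCAAT stood in 19 of 21 and 8 of 12, against 37.9% of all genes, and CHR together with CCAAT in 17 of 21 and 2 of 12, against 7.70%. E2F words stood in 3 of 21 and 7 of 12, against 6.93% of all genes. Without those that overlap CCAAT the E2F counts are 2 and 7, against 6.51%. Top2a, which cuts and rejoins DNA, held most words (4 CHR and 6 CCAAT). Birc5, Nusap1, Tyms and Tk1 held none of them. A match describes letters only and is no measure of binding.

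Across cell classes most of the 40 genes had their highest mean in dendritic cells or innate lymphocytes and their lowest in progenitors. Levels here are a gene's UMIs scaled to the class's total in a library (CPM), averaged over libraries. Of 10 classes with at least 20 cells in 6 or more libraries, dendritic cells had the highest mean for 23 of the 40 genes and innate lymphocytes, mostly natural killer-like cells led by Gzma, for 13. Progenitors had the lowest mean for 27 genes, B cells for 6 (Tyms, Cdk1, Bub1, Kif11, Kif20a and Tpx2), monocytes for 4 (Mcm2, Mcm6, Mcm7 and Rrm1), mural cells for 2 (Gins2 and Cdc6) and epithelial cells for 1 (Pcna). Mki67 stood at 141 ± 68.7 CPM (SD, n = 7) in dendritic cells, 41.5 ± 28.9 in macrophages and 3.11 ± 2.47 in progenitors. Cdk1 followed the same order in these 3 classes, with 37.1 ± 8.64, 12.8 ± 6.95 and 3.42 ± 4.01 CPM (SD, n = 7), where macrophages and progenitors overlap within their spread over all libraries. The summed level of the 25 G2/M genes was 1088 ± 415 CPM (SD, n = 7) in dendritic cells, 366 ± 198 in macrophages, 611 ± 358 in T cells and 55.0 ± 35.3 in progenitors.

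**Figure D1:**
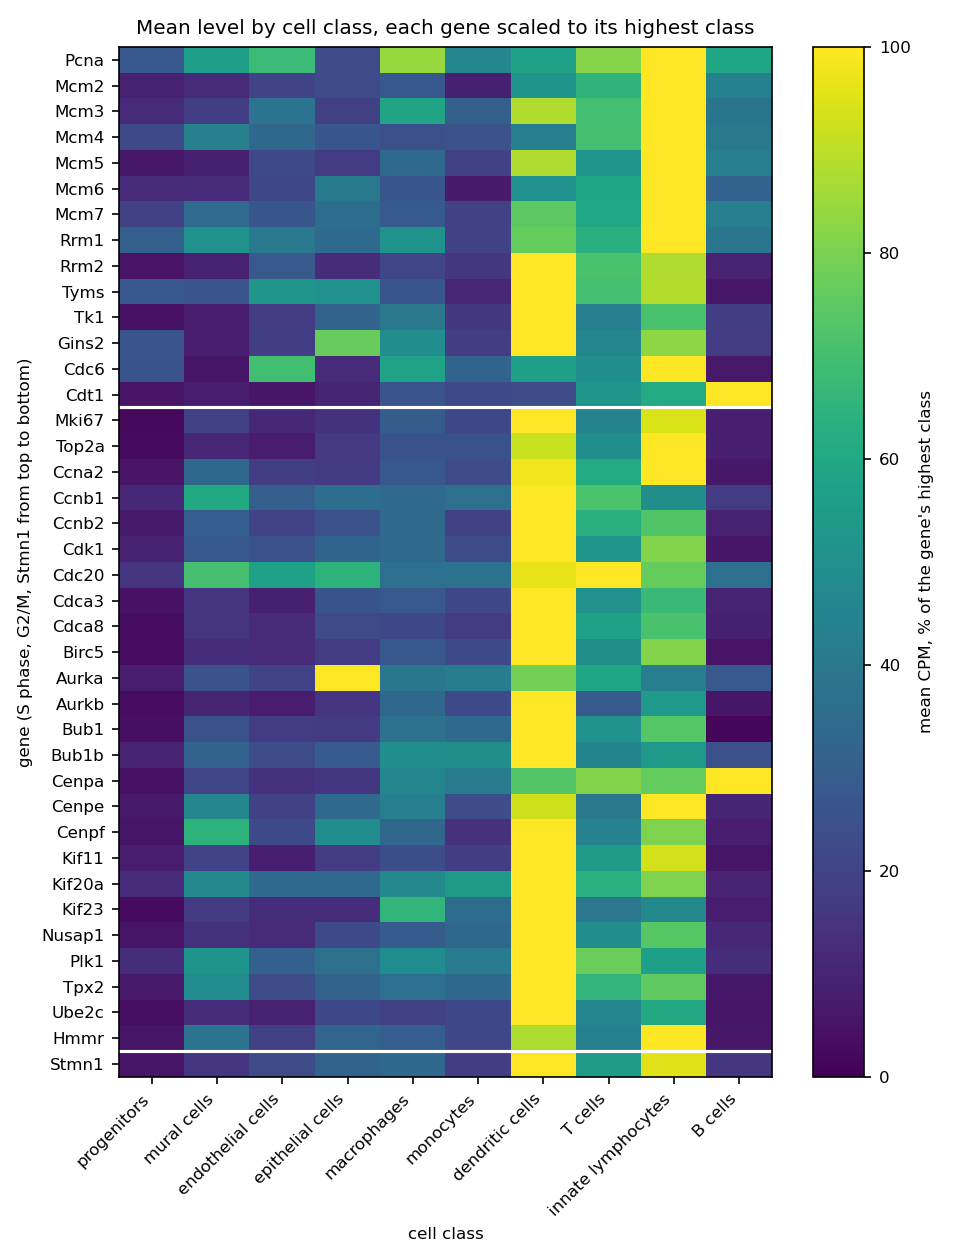
Mean level of each of the 40 genes in 10 cell classes (columns), as a percentage of that gene's highest class, with S phase genes above, G2/M genes below and Stmn1 last. Dendritic cells hold the highest mean for 23 genes and innate lymphocytes for 13; the progenitor column is dark for nearly all G2/M genes.

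A few members had their highest mean elsewhere. Cdt1, the licensing factor, and Cenpa, the histone H3 variant of centromeres, had their highest means in B cells (75.2 and 116 CPM), where few cells carried other G2/M genes. Cdc20, an activator of the anaphase-promoting complex, was highest in T cells (16.4 CPM) and Aurka, a spindle kinase, in epithelial cells (11.7 CPM). Stmn1, which takes microtubules apart, reached 781 ± 333 CPM (SD, n = 3 young libraries) in Schwann cells, a class with too few cells for the set of 10. No Schwann cell carried 3 G2/M genes in those libraries (0 of 82, 0 of 24 and 0 of 41 cells, which allow shares of up to 3.66%, 12.5% and 7.32%). The summed G2/M level of Schwann cells was 99.7, 55.8 and 46.0 CPM, from 49, 15 and 12 UMIs.

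Most cells had no G2/M RNA after thinning, and a small number carried 5 or more of the genes at once. Each cell of at least 2000 UMIs was thinned to 2000 UMIs (33953 cells; 6.28% to 12.9% of a library's kept cells were shallower). Of these, 29472 cells had no UMI of any G2/M gene, 3616 had 1 gene, 303 had 2, 79 had 3, 51 had 4 and 432 had 5 or more. The last of these numbers pools all higher counts. The 562 cells with 3 or more are called G2/M cells below; 130 of them had 3 or 4 genes and so lay near that limit. Calls of doublets (droplets with 2 cells) were more frequent among such cells, at 8.02% of 611 against 4.52% of the 34970 others, and the called doublets were left out.

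S phase genes and Stmn1 were not used to find these cells, and all 15 were detected in a larger share of G2/M cells than of cells with no G2/M gene, in 7 of 7 libraries. Stmn1 was detected in 78.0% ± 3.18 (SD, n = 7) of G2/M cells and 5.47% ± 1.69 of cells with none. Tk1, thymidine kinase, was found in 20.6% ± 9.50 against 0.253% ± 0.142, and Rrm2, a ribonucleotide reductase subunit, in 23.8% ± 6.20 against 0.501% ± 0.189. Pcna differed least in proportion, at 34.3% ± 5.63 against 18.6% ± 6.23, and the ranges of its 2 groups of cells overlapped across libraries. The cells with no G2/M gene can include cells in S phase, and no background share was measured for Pcna. For Mcm5, an MCM helicase subunit, the shares were 19.2% ± 5.71 and 1.54% ± 0.515 (SD, n = 7). All cells here were thinned to the same depth.

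**Figure D2:**
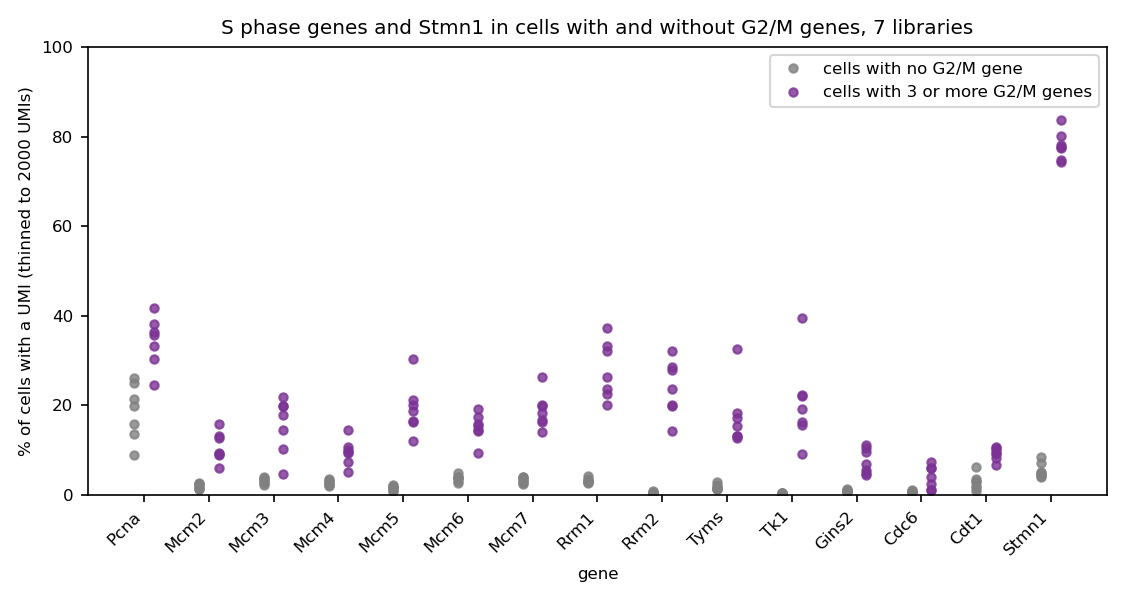
Percentage of cells with at least 1 UMI of each S phase gene and of Stmn1, among cells with no G2/M gene (grey) and with 3 or more (purple), after thinning to 2000 UMIs; each point is 1 of 7 libraries. Stmn1 stands near 78% in purple and 5% in grey, and Pcna is the gene whose colours overlap.

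G2/M cells were spread over many lineages. Of the 562, macrophages gave 139, dendritic cells 101, T cells 92, unnamed clusters 77, epithelial cells 41, innate lymphocytes 35, progenitors 30, endothelial cells 11, plasma cells 10 and mast cells and basophils 9. As a share of their class they made up 11.3% ± 3.18 (SD, n = 4) of dendritic cells at the young age and 12.1% ± 4.87 (SD, n = 3) at the old age. In macrophages the shares were 3.03% ± 1.90 and 2.65% ± 1.18. In progenitors the shares were 0.379% ± 0.297 (SD, n = 4) and 0.149% ± 0.146 (SD, n = 3). Neutrophils, which leave the bone marrow after their last division, served as a class that should lack these genes. None of 59, 41 and 37 old neutrophils was counted among the G2/M cells, so that their share could reach 5.08%, 7.32% and 8.11%, at median depths of 5517.5, 3234.5 and 3881 UMIs, against 11532, 12935 and 8942.5 UMIs in progenitors of the same libraries. These limits lie above the progenitor shares. The summed G2/M level of old neutrophils was 66.0, 144 and 91.9 CPM, from 25, 20 and 14 UMIs, and that of progenitors of the same libraries was 38.0, 48.1 and 13.2 CPM. Progenitor sums thus lay below those of the class that should lack the genes, in each of the 3 old libraries. By the sum alone they cannot be told from such a background, and the neutrophil sums rest on few UMIs. At the deposited depth, cells with 3 or more G2/M genes held 49.2%, 55.7% and 2.03% of the G2/M UMIs of these old progenitors. No such share was taken for neutrophils.

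Within lineages the G2/M cells sat in particular clusters. The macrophage cluster led by Spp1, Cxcl2 and Trem2, genes of lipid-associated macrophages, held 123 G2/M cells among 1889 (7.22% ± 4.35 (SD, n = 7)), and the one led by Cd209f, Folr2 and Fcna held 16 among 2965 (0.436% ± 0.390). Among T cells the cluster led by Ccl5 and Nkg7 had a share of 6.24% ± 3.97 (SD, n = 6) and the one led by Lef1 and Ccr7, genes of naive T cells, 1.15% ± 1.30 (SD, n = 6). Epithelial cells led by Prlr and Krt19 had 6.12% ± 5.11 (SD, n = 6) and mast cells and basophils 11.1% ± 7.91 (SD, n = 3, all young). Plasma cells, with at least 20 cells in old libraries only, had 6.96% ± 1.25 (SD, n = 3). Among progenitors the cluster led by Smoc2, Ccl11 and Cxcl14 held 0 G2/M cells among 2953, and the cluster led by Scg3, H19, Postn and Col3a1 held 13 among 3341. These clusters were found without the cell cycle genes, and the differences between them are given without a test.

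**Figure D3:**
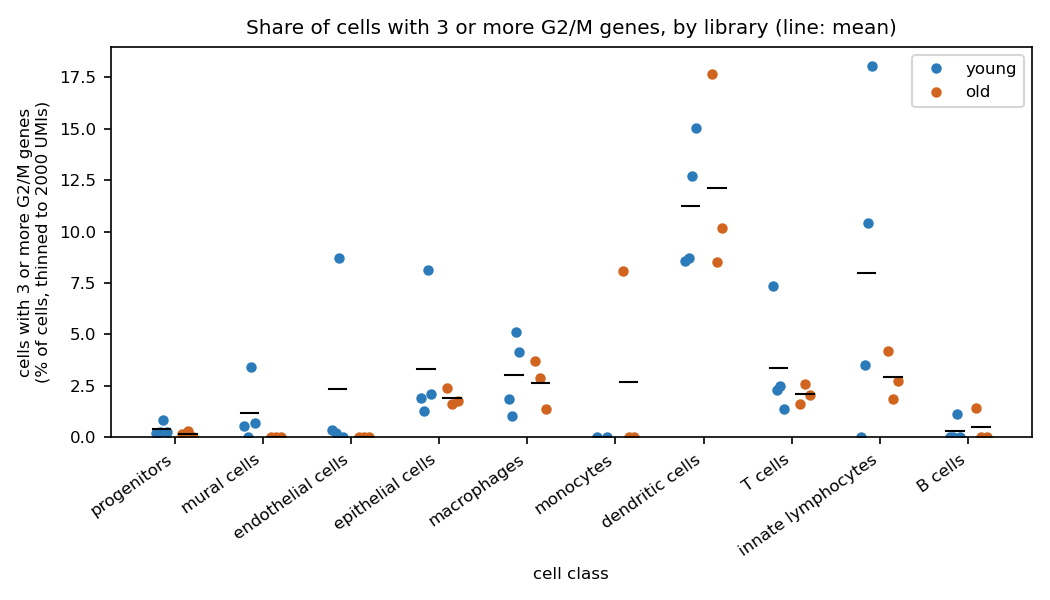
Percentage of cells with 3 or more G2/M genes after thinning to 2000 UMIs (y axis) in 10 cell classes (x axis), young libraries in blue, old libraries in orange, lines at the mean of each age. Dendritic cells lie highest at both ages, progenitors lie under 1% in every library, and in endothelial cells 1 young library (replicate 3) stands at 8.70% over the rest.

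No difference between ages in the share of cells with an Mki67 UMI was larger than the spread between libraries in any of the 6 cell groups tested. In macrophages it was 2.78%, 1.74%, 4.59% and 3.71% in young and 4.51%, 3.00% and 1.77% in old libraries. Each age had high and low libraries, and the ages overlapped. In progenitors the shares were 0.0980%, 0.116%, 0.514% and 0.228% in young and 0.364%, 0.364% and 0.0890% in old libraries, which rest on 1 to 7 cells each. Of the old neutrophils, 0 of 59, 2 of 41 and 0 of 37 had an Mki67 UMI. The exact permutation test over the 35 ways to divide the libraries (2-sided, smallest possible p = 0.0286) gave p = 0.914 for all kept cells, 0.886 for progenitors, 0.914 for macrophages, 0.571 for endothelial cells, 0.457 for T cells and 0.400 for B cells, and 0.914 in all 6 after Benjamini-Hochberg adjustment. Exact 95% Clopper-Pearson intervals of single libraries were wide: macrophages of young replicate 1, with 3 of 108 cells, had 0.577% to 7.90%. Intervals and limits cover counting error only.

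The age comparison over all genes summed the counts of each class in each library and tested old against young with edgeR's quasi-likelihood test and Benjamini-Hochberg adjustment. At an adjusted p under 0.05, 0 of the 40 genes passed in any of 9 groups of cells. Of the genes tested, 1.62% passed in all kept cells, 1.83% in progenitors, 0.41% in macrophages, 0.155% in endothelial cells, 0.189% in T cells, 0.889% in B cells, 0.0208% in dendritic cells, 0.0174% in monocytes and 0.0157% in mural cells. At an unadjusted p under 0.05 there were 3 members in all kept cells, 10 in progenitors, 5 in macrophages, 8 in endothelial cells, 1 in mural cells and 0 in T cells, B cells, dendritic cells and monocytes. Of all genes tested, 21.2% had such a p in all kept cells, 17.0% in progenitors, 9.55% in macrophages, 9.60% in endothelial cells, 6.50% in mural cells, 8.26% in T cells, 8.02% in B cells, 2.98% in dendritic cells and 6.23% in monocytes. DESeq2 called 1 member in all kept cells and 4 in progenitors and 0 in the other groups. In each class, fold changes below are old against young.

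Progenitors, the Pdgfra-type stromal cells that can become adipocytes, showed the 2 waves on different sides of 0. Of 14 S phase genes 10 were higher in old libraries and 4 lower, with a median log2 fold change of 0.26, while all 24 G2/M genes that could be tested were lower, with a median of -1.15. Bub1 was too low to test, and the median over all 14065 genes tested was -0.01. None of these passed, and the 24 G2/M genes share the same few dividing cells, so they are not 24 separate observations. Every old library lay above every young one for 1 of the 39 members tested (7.83% of all genes did) and below for 4 (9.29%).

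Stmn1 had 14.8, 17.0, 34.6 and 22.6 CPM (TMM-scaled, as all CPM of the age comparison) in young progenitors and 9.83, 8.25 and 6.06 CPM in old. All old libraries lay below all young ones (-1.46 ± 0.32 (SE) as log2 fold change, adjusted p = 0.0568 in edgeR). Bub1b, a spindle checkpoint kinase, had 2.45, 2.14, 2.69 and 2.51 CPM in young and 0.93, 0.96 and 0.60 CPM in old progenitors. Here too the ages did not overlap, and young libraries agreed closely (-1.52 ± 0.32 (SE) as log2 fold change, adjusted p = 0.0517 in edgeR). Without young replicate 1 both passed in edgeR (adjusted p = 0.0309 for Stmn1 and 0.0459 for Bub1b). DESeq2 called both (adjusted p = 0.000945 for Stmn1 and 0.00162 for Bub1b), together with Pcna (0.0182) and Ube2c, the ubiquitin-conjugating enzyme of the anaphase-promoting complex (0.0238).

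Birc5, the survivin of the chromosomal passenger complex, had 2.02, 2.05, 7.06 and 3.07 CPM in young and 1.83, 1.98 and 0.70 CPM in old progenitors (-1.20 ± 0.54 (SE) as log2 fold change, adjusted p = 0.307 in edgeR). Nusap1, a spindle protein, was the other member with no overlap between ages (2.52 ± 1.05 (SD, n = 4) and 1.20 ± 0.55 CPM (SD, n = 3)). For most G2/M genes young replicate 3 was the highest library and old replicate 3 the lowest, and those libraries were also the deepest and the shallowest (median 25632 and 8942.5 UMIs per progenitor). Cdk1 had 3.37, 1.09, 12.2 and 3.56 CPM in young and 1.51, 1.74 and 0.30 CPM in old progenitors. Top2a had 2.39, 2.48, 12.3 and 4.86 CPM against 3.42, 3.04 and 0.10 CPM. Mki67 had 1.84, 1.92, 8.10 and 3.42 CPM against 3.57, 2.65 and 0.10 CPM. In these 3 genes old replicates 1 and 2 lay within the range of the young libraries, and old replicate 3 lay below it. Ccnb1, cyclin B1, had 1.90, 1.6, 3.49 and 1.40 CPM in young and 1.90, 1.35 and 0.60 CPM in old progenitors, with the ages overlapping. Their log2 fold changes were -2.0 (SE 0.81), -1.26 (SE 0.82), -0.79 (SE 0.79) and -0.65 (SE 0.47) for Cdk1, Top2a, Mki67 and Ccnb1, with edgeR adjusted p from 0.25 (Cdk1) to 0.680 (Mki67).

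The S phase wave in progenitors leaned the other way through a few genes. Pcna had 24.2, 54.7, 47.4 and 45.2 CPM in young and 90.8, 75.9 and 79.6 CPM in old progenitors. Every old library lay above every young one (0.94 ± 0.25 (SE) as log2 fold change, adjusted p = 0.108 in edgeR), and the value passed without young replicate 1 (log2 fold change 0.74, edgeR adjusted p = 0.038). Mcm6 had 9.81, 8.89, 13.6 and 8.51 CPM against 15.4, 14.1 and 13.1 CPM, where old replicate 3 fell below young replicate 3 (log2 fold change 0.48, SE 0.20). Mcm5 had 1.66, 1.62, 6.07 and 1.74 CPM in young and 4.23, 4.39 and 3.97 CPM in old progenitors. Young replicate 3 stood above all old libraries and the other young ones below them. Rrm2 had 1.23, 1.54, 3.30 and 2.33 CPM against 2.41, 1.74 and 1.29 CPM. Tyms, thymidylate synthase, had 12.2, 7.35, 9.79 and 9.09 CPM against 7.53, 7.33 and 8.54 CPM. For Rrm2 and Tyms the ages overlapped and the fold changes were -0.19 (SE 0.41) and -0.30 (SE 0.21) on the log2 scale.

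**Figure D4:**
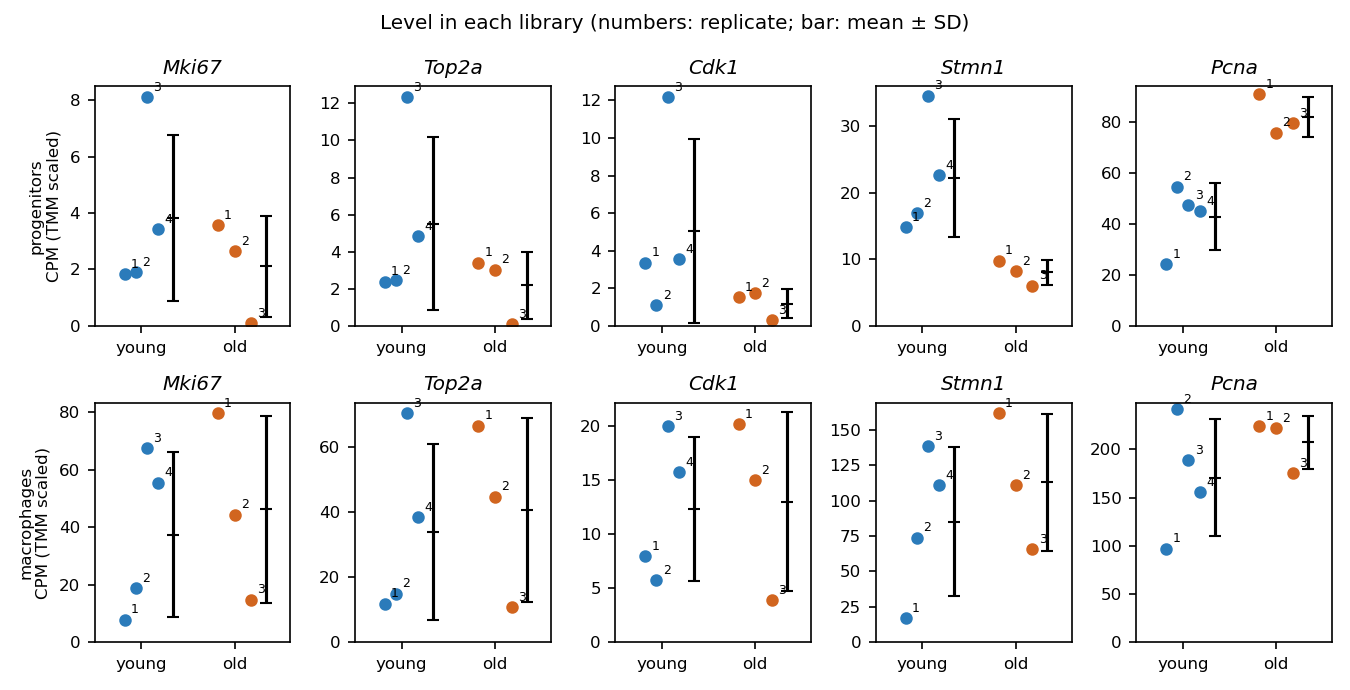
Level of 5 genes (TMM-scaled CPM, y axis) in progenitors (top) and macrophages (bottom), 1 point per library with its replicate number, young in blue, old in orange, bars at mean ± SD. In progenitors old Stmn1 lies below and old Pcna above all young libraries; in macrophages both ages span low and high libraries.

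The G2/M RNA of progenitors was unevenly spread over cells. At the deposited depth, which differs between libraries, cells with 3 or more G2/M genes made up 1.29% of progenitors (157 of 12170) and held 68.2% of their 10989 G2/M UMIs. They held 68.0%, 55.8%, 85.4% and 71.4% of these UMIs in young libraries and 49.2%, 55.7% and 2.03% in old. In the remaining progenitors the summed G2/M level was 18.7 ± 1.85 CPM (SD, n = 4) in young and 18.1 ± 4.58 CPM (SD, n = 3) in old libraries, with overlapping ranges. The summed S phase level of those remaining cells was 106 to 127 CPM in the young and 153 to 189 CPM in the old libraries, with no overlap. Pcna, the highest S phase gene, weighs heavily in this sum. Over all progenitors it averaged 42.9 ± 13.1 CPM (SD, n = 4) in young and 82.1 ± 7.80 CPM (SD, n = 3) in old libraries (TMM-scaled). Of the 14 S phase genes, 4 (Tyms, Gins2, Tk1 and Rrm2) were lower in old progenitors. The cells were divided by the same G2/M genes and at unequal depth, so these G2/M values are a description and do not show where the difference between ages lay.

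Several measures moved with these differences in progenitors, and their part in the result was not tested. The cluster led by Postn and Col3a1, which held 13 G2/M cells, made up 37.8% ± 17.1 (SD, n = 4) of progenitors at the young age and 5.59% ± 1.85 (SD, n = 3) at the old age. The one led by Smoc2 and Cxcl14, with none, made up 12.3% ± 6.43 and 50.8% ± 3.33. Inside the Postn cluster the share of G2/M cells was 0.244% ± 0.194 (SD, n = 4) in young libraries. In old libraries it was 1.33% ± 1.57 (SD, n = 3), ranging from 0% to 3.06%. The ages overlapped and these shares rest on few cells, so no direction can be read from them. Other progenitor clusters held G2/M cells too, such as the one led by Enpp2 and Hsd11b1 (8 among 2142). Of the 25 G2/M genes, 21 were over 10 times higher in another class than in progenitors, as were 5 of the 14 S phase genes. With called doublets kept, Mki67 and Ccnb1 had log2 fold changes of 0.12 and 0.01 in place of values below 0.

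Macrophages had more G2/M RNA than progenitors at both ages, and here neither wave separated the ages. Of 14 S phase genes 13 were higher in old libraries (median log2 fold change 0.48) and of 25 G2/M genes 19 (median 0.24), against a median of 0.02 over all 11703 genes tested. Mki67 had 7.93, 18.8, 67.6 and 55.6 CPM in young and 79.9, 44.4 and 14.9 CPM in old macrophages. Top2a had 11.9, 15.0, 70.4 and 38.3 CPM against 66.5, 44.7 and 10.7 CPM. Young replicates 1 and 2 and old replicate 3 were low and the others high, for both genes. Their log2 fold changes were 0.24 (SE 0.61) and 0.21 (SE 0.61).

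Cdk1, Ccnb1 and Birc5 were low in the same macrophage libraries. Cdk1 had 7.93, 5.74, 19.9 and 15.7 CPM in young and 20.1, 14.9 and 3.90 CPM in old libraries. Ccnb1 had 2.97, 2.10, 7.63 and 7.06 CPM against 8.28, 7.27 and 2.19 CPM. Birc5 had 7.93, 7.01, 35.6 and 23.6 CPM against 37.6, 24.5 and 12.4 CPM. Again the low libraries were young replicates 1 and 2 and old replicate 3, and log2 fold changes lay between 0.06 and 0.36 with SEs of 0.505 to 0.517. Stmn1 had 16.9, 73.8, 138 and 111 CPM against 162, 111 and 65.5 CPM (log2 fold change 0.37, SE 0.50). Cenpa had 36.7, 59.8, 62.3 and 75.6 CPM against 54.4, 43.6 and 44.1 CPM. Kif23, a motor of cell separation, had 21.8, 28.4, 40.5 and 32.1 CPM against 35.6, 25.6 and 17.1 CPM. Both had log2 fold changes below 0 (-0.34 and -0.26) with overlapping ages. Without old replicate 1 the fold changes of Mki67, Top2a, Cdk1, Ccnb1 and Birc5 in macrophages were also below 0.

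S phase genes in macrophages were closer to a difference between ages. Mcm5 had 8.92, 8.69, 25 and 10.9 CPM in young and 26.9, 22.8 and 21.2 CPM in old libraries, where only young replicate 3 reached the old range (0.78 ± 0.34 (SE) as log2 fold change, adjusted p = 0.502 in edgeR). Gins2 had 9.92, 4.76, 7.84 and 6.05 CPM against 12.6, 9.29 and 11.9 CPM, with 1 overlapping pair (0.76 ± 0.27 (SE) as log2 fold change, adjusted p = 0.367 in edgeR). Mcm7 had 11.9, 14.3, 20.8 and 11.7 CPM against 26.9, 21.9 and 18.0 CPM (log2 fold change 0.59, SE 0.24). In each of these 3 genes 1 young library lay inside the old range. Old replicates 2 and 3 for Mcm5, old replicate 2 for Gins2 and old replicate 3 for Mcm7 lay inside the young range. Tyms had 9.92, 6.02, 8.48 and 5.04 CPM in young and 11.8, 10.2 and 9.01 CPM in old libraries. Rrm2 had 2.97, 2.66, 13.1 and 4.32 CPM against 12.1, 12.9 and 4.14 CPM. Pcna had 97.2, 241, 189 and 156 CPM against 224, 222 and 175 CPM. For Tyms, Rrm2 and Pcna the ages overlapped (log2 fold changes 0.60, 0.73 and 0.27). The Trem2 cluster, where most dividing macrophages sat, made up 36.1% ± 1.56 (SD, n = 4) of macrophages at the young age and 40.4% ± 11.3 (SD, n = 3) at the old age.

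**Figure D5:**
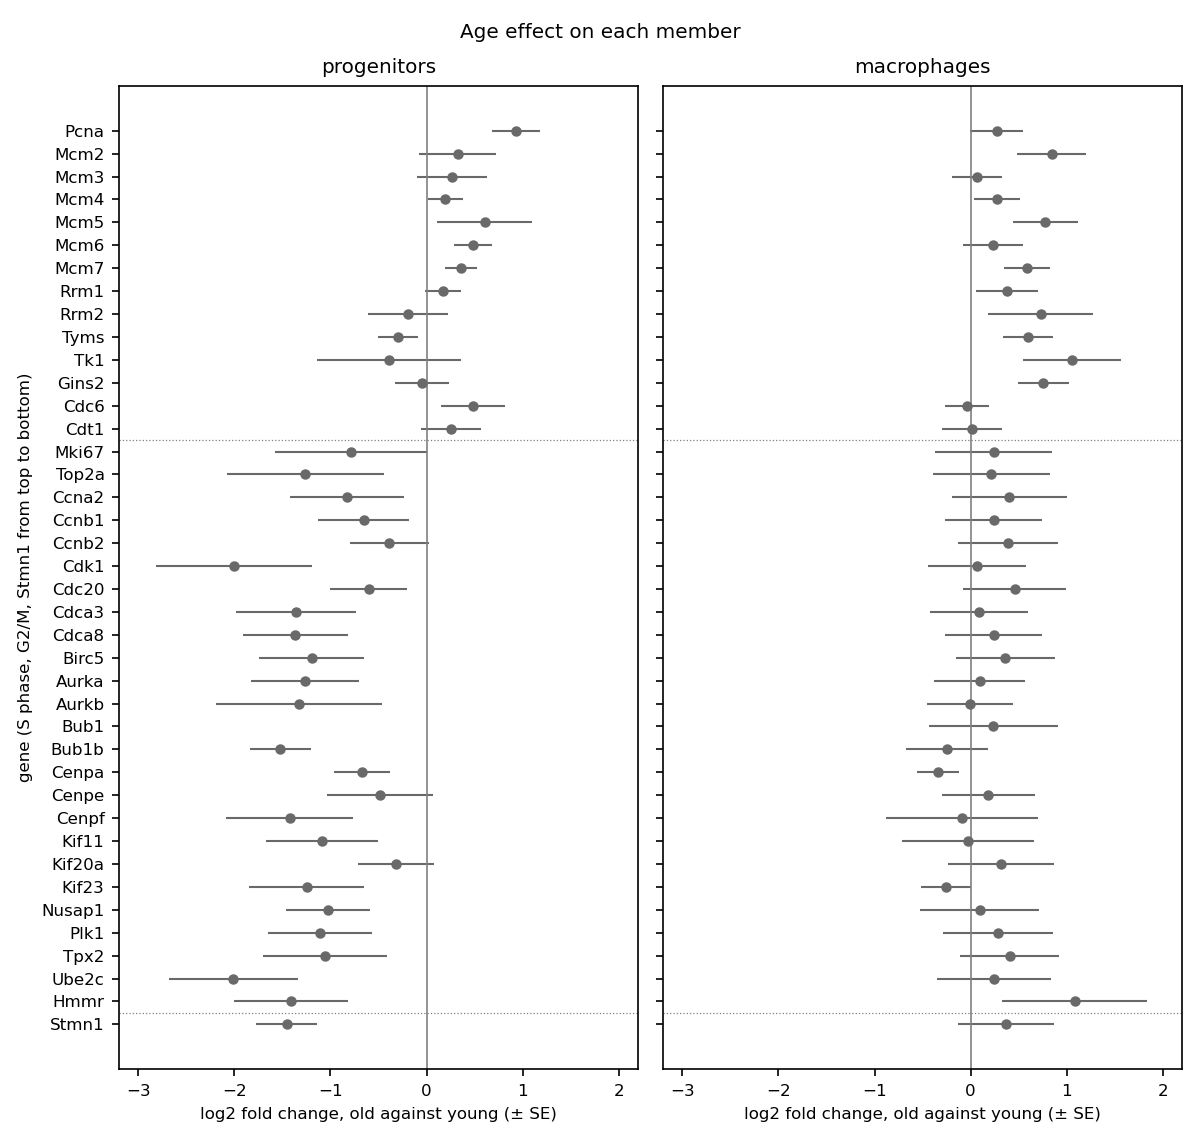
Log2 fold change of old against young with its SE (x axis) for each of the 40 genes (y axis) in progenitors and macrophages. In progenitors the G2/M genes and Stmn1 lie left of 0 and 10 of 14 S phase genes right of it; in macrophages 33 of 40 genes lie right of 0 with wide errors, and Bub1 has no value in progenitors.

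Set against each other within the same libraries, macrophages and progenitors differed in their age effect for 4 of the 40 genes. This fit asks whether the old against young log2 fold change is larger in macrophages than in progenitors, with each library as its own control. The difference was above 0 for all 25 G2/M genes (median 1.21) and 9 of 14 S phase genes (median 0.14), against a median of -0.05 over all genes. Top2a, Stmn1, Birc5 and Hmmr, a spindle-associated hyaluronan receptor, passed at an adjusted p under 0.05, and 24 members had an unadjusted p under 0.05 in this direction, as did 6.62% of all genes. The G2/M genes share the same few dividing progenitors here too, so these counts are not of separate observations. Of all 14083 genes tested 1.86% passed, and 0.809% in this direction.

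The within-library ratio of macrophage to progenitor CPM (unscaled) gives these differences library by library, and cannot tell which of the 2 classes changed. The genes shown were picked because they passed that fit on the same libraries, so a lack of overlap in their ratios is not separate support. For Top2a it was 5.18, 6.03, 5.85 and 7.58 in young and 19.7, 14.6 and 104 in old libraries, the last resting on 1 progenitor UMI (95% counting interval 17.7 to 4203). Every old ratio lay above every young one (difference of log2 fold changes 1.51, SE 0.28, edgeR adjusted p = 0.0222). For Stmn1 the ratio was 1.18, 4.33, 4.10 and 4.72 in young and 16.7, 13.3 and 10.4 in old libraries. The ages again did not overlap (1.83, SE 0.34, edgeR adjusted p = 0.0237). For Birc5 it was 4.08, 3.41, 5.17 and 7.40 against 20.8, 12.3 and 17.2, also without overlap (1.63, SE 0.32, edgeR adjusted p = 0.0301). Hmmr had no macrophage UMI in young replicate 1, ratios of 0.959, 3.96 and 2.13 in the other young libraries and 22.0, 10.1 and 14.2 in old ones, the last with 2 progenitor UMIs (interval 3.16 to 131). Its difference was 2.72 (SE 0.57, edgeR adjusted p = 0.039).

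The count of 4 depended on single libraries and on the treatment of doublets. It was 0 when old replicate 1 was left out, 1 without young replicate 3, 2 if old replicate 2 was dropped, and 1 with doublets kept, where Stmn1 alone passed. It was 2 with young replicates 1 and 3 both left out, an alternative chosen after seeing the data. In GENCODE M21 (mm10) the 4 genes lie at chr11:98992943-99024189 (Top2a), chr4:134468320-134473843 (Stmn1), chr11:117849251-117855743 (Birc5) and chr11:40701395-40733422 (Hmmr). Pcna went the other way, with ratios of 4.19, 4.41, 4.08 and 3.31 in young and 2.50, 2.90 and 2.13 in old libraries. Each old ratio was lower than each young one, and the difference of -0.70 (SE 0.17) gave an edgeR adjusted p of 0.0596.

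In endothelial cells, which line blood vessels, 1 young library stood far above the others in division genes. The summed G2/M level was 71.7, 38.0, 907 and 28.3 CPM (unscaled) in young and 33.1, 35.7 and 28.1 CPM in old libraries. Of the 11 G2/M cells, 4 came from young replicate 1, 1 from young replicate 2 and 6 from young replicate 3. All 9 G2/M genes that could be tested were lower in old libraries (median log2 fold change -2.58) and 12 of 13 S phase genes (median -0.41), against 0.00 over all 11584 genes. Bub1b and Tpx2, at most 1.38 and 1.00 CPM (TMM-scaled) in old libraries, met the expression filter through young libraries alone. Their direction was set in part by that filter and is not support. Mki67 had 4.50, 2.75, 98.9 and 1.04 CPM in young and 2.89, 2.13 and 0.54 CPM in old endothelial cells. Cdk1 had 6.43, 1.20, 51.3 and 1.39 CPM against 1.01, 1.5 and 2.44 CPM (-3.11 ± 1.22 (SE) as log2 fold change, adjusted p = 0.431 in edgeR). Young replicate 3, with 71 endothelial cells of which 6 of 69 thinned ones were G2/M cells, was the highest library for both genes; in the others they lay between 0.54 and 6.43 CPM.

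Stmn1 had 45.9, 36.3, 257 and 52.9 CPM in young and 26.4, 24.8 and 33.3 CPM in old endothelial cells (-1.77 ± 0.64 (SE) as log2 fold change, adjusted p = 0.361 in edgeR). It did not overlap between ages, with Mcm2, Bub1b and Cenpa: 4 of the 23 members tested had every old library below every young one, against 4.96% of all genes. Of these, Bub1b met the expression filter through young libraries alone. Cdc6 was the only tested member with a fold change above 0, at 3.86, 9.97, 12.4 and 6.96 CPM in young and 8.93, 10.0 and 14.6 CPM in old libraries. Against progenitors, 1 member passed: Mcm5 (difference of log2 fold changes -1.63, SE 0.28, edgeR adjusted p = 0.0295), where 0.821% of all genes passed and 0.317% in this direction. The ratio of endothelial to progenitor CPM of Mcm5 was 5.63, 4.88, 5.64 and 4.64 in young and 1.46, 1.28 and 2.51 in old libraries. Young ratios agreed closely, young replicate 3 included, and all lay above the old ones. Mcm5 was picked because it passed on the same libraries, so this is not separate support. The call was lost when any 1 of young replicates 3 and 4 and old replicates 1 and 2 was left out (edgeR adjusted p up to 0.194), and Pcna passed with it without young replicate 1. The cluster led by Gpihbp1 and Cldn5 made up 3.37% of endothelial cells in young replicate 1 and 66.2% to 88.0% in the other libraries, and its part in the result was not tested.

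In T cells all 25 G2/M genes were lower in old libraries, with a median log2 fold change of -0.43, and 10 of 14 S phase genes (median -0.10), against 0.00 over all genes. Cenpa had 122, 99.4, 109 and 97.1 CPM in young and 69.2, 74.2 and 91.0 CPM in old T cells. Cdca8, borealin of the chromosomal passenger complex, had 74.1, 25.5, 23.7 and 14.8 CPM against 11.6, 16.3 and 20.1 CPM. Cenpa was the only member with all old libraries below all young ones (3.42% of all genes), and Cdca8 overlapped (log2 fold changes -0.44 and -0.93, edgeR adjusted p = 0.604 and 0.648). Cdt1 had 11.4, 39.5, 39.5 and 40.1 CPM in young and 48.8, 45.3 and 58.9 CPM in old T cells, the only member with all old libraries above (4.44% of all genes). Pcna had 101, 235, 147 and 136 CPM against 215, 213 and 212 CPM. Young replicate 1, with 71 T cells, was highest for all 25 G2/M genes and lowest for Cdt1 and Pcna. The cluster led by Ccl5 and Nkg7, rich in G2/M cells, made up 18.2% ± 13.6 (SD, n = 4) of T cells at the young age and 39.3% ± 4.26 (SD, n = 3) at the old age, while its own share of G2/M cells was 9.12% ± 3.79 (SD, n = 3) in young and 3.37% ± 0.580 (SD, n = 3) in old libraries. These values were not tested. Against progenitors 0 members passed in edgeR, 3 had an unadjusted p under 0.05 (15.1% of all genes did), and 0.712% of all genes passed; this comparison was run with edgeR alone.

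Dendritic cells, the class with the largest share of G2/M cells among those with both ages, had no member that passed or that separated the ages. Of 25 G2/M genes 18 were higher in old libraries (median log2 fold change 0.16) and of 14 S phase genes 12 were lower (median -0.38), against 0.02 over all genes. Birc5 had 40.6, 67.8, 76.6 and 95.2 CPM in young and 117, 63.9 and 98.9 CPM in old dendritic cells. Kif20a, a motor of late mitosis, had 6.10, 7.53, 3.44 and 7.16 CPM against 12.2, 6.69 and 9.97 CPM. Mcm3 had 75.2, 57.4, 60.2 and 46.2 CPM against 32.2, 25.1 and 67.7 CPM, and Rrm2 77.2, 28.0, 32.7 and 35.8 CPM against 20.9, 14 and 43.4 CPM. The ages overlapped for all 4 (edgeR adjusted p = 1.00 to 3 digits for each). Young replicate 1, with 40 dendritic cells, was the highest library for Rrm2.

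B cells, monocytes and mural cells had too little G2/M RNA for most members to be tested. In B cells 11 of 40 members were tested, 1 of them a G2/M gene. Mcm4 had 3.19, 26.4, 21.2 and 19.4 CPM in young and 20.6, 26.0 and 26.4 CPM in old B cells, and Mcm3 19.1, 19.2, 13.5 and 33.3 CPM against 22.7, 24.4 and 27.4 CPM. Mcm5 had 35, 26.4, 28.0 and 13.9 CPM against 14.9, 21.1 and 20.3 CPM, and Mcm2 25.5, 19.2, 30.9 and 11.1 CPM against 15.6, 19.5 and 24.9 CPM. All 4 overlapped between ages. In monocytes, without young replicate 3 (14 cells), 5 members were tested, all higher in old libraries. Stmn1 had 14.4, 23.9 and 17.2 CPM in young replicates 1, 2 and 4 and 223, 13.4 and 33.0 CPM in old ones, and Cenpa 21.6, 30.7 and 34.4 CPM against 143, 20.6 and 50.1 CPM. Old replicate 1 alone was high in both, and it held all 5 G2/M cells of the monocytes. In mural cells, the contractile cells of vessel walls, Pcna had 53.2, 142, 98.4 and 119 CPM against 206, 119 and 188 CPM and Mcm4 14.5, 20.2, 20.9 and 29.5 CPM against 24.5, 30.6 and 23.5 CPM. Stmn1 had 30.5, 40.5, 135 and 32.5 CPM against 26.9, 20.4 and 43.0 CPM there, and Rrm1 17.8, 33.7, 46.1 and 62.0 CPM against 36.7, 3.40 and 15.6 CPM. For these 4 genes the ages overlapped.

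Over all kept cells 12 of 14 S phase genes (median log2 fold change 0.51) and 19 of 25 G2/M genes (median 0.26) were higher in old libraries, against 0.00 over all 16526 genes. A sum over all cells also moves with the mix of classes, so more cells of a type and more RNA per cell cannot be told apart in it. Pcna had 40.0, 107, 83.5 and 75.9 CPM in young and 133, 144 and 138 CPM in old libraries, and Cdt1 5.18, 7.26, 11.6 and 9.33 CPM against 14.1, 15.6 and 30.7 CPM. Neither overlapped between ages, nor did Mcm7 and Cdc6. Every old library lay above every young one for 4 of the 40 members. This is near the share of all genes (9.74%), so it is not particular to the members. Cdt1 was at 1.27 on the log2 scale (SE 0.35; adjusted p = 0.0974 in edgeR) and was called by DESeq2 (adjusted p = 0.0174). Old replicate 3, with the highest Cdt1, held 1218 B cells, the class where Cdt1 was highest, against 74 to 221 in the other libraries. Aurka had 5.20, 2.34, 5.91 and 5.37 CPM in young and 2.87, 2.83 and 4.81 CPM in old libraries, and Cenpf, a kinetochore protein, 9.26, 4.73, 21.5 and 10.7 CPM against 11.7, 11.1 and 4.72 CPM. They overlapped between ages and were the members with the lowest p among those lower in old libraries (edgeR adjusted p = 0.564 and 0.766).

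A longer list of 145 other cell cycle genes gave the surroundings of the 40. In progenitors 133 could be tested and 51 were higher in old libraries (median log2 fold change -0.14, against -0.01 over all genes). Of them 2 rose and 1 fell, or 2.26%, near the 1.83% of all genes that passed. E2f1, a transcription factor of S phase entry, fell from 15.6, 15.2, 16.4 and 12.5 CPM in young to 5.94, 7.62 and 7.35 CPM in old progenitors (-1.10 ± 0.18 (SE) as log2 fold change, adjusted p = 0.0216 in edgeR). Hmgb2, a chromatin protein high in dividing cells, rose from 43.6, 42.7, 50.6 and 39.5 CPM to 83.9, 68.7 and 102 CPM (0.94, SE 0.17, edgeR adjusted p = 0.0305). Cdk6, a kinase of the G1 phase, rose from 4.66, 3.95, 8.68 and 5.05 CPM to 15.8, 13.3 and 13.9 CPM (1.36, SE 0.27, edgeR adjusted p = 0.0417). In all 3 genes old and young libraries did not overlap. They were picked because they passed on the same libraries, so this is not separate support. Among all genes tested in progenitors, every old library lay above every young one for 7.83% and below for 9.29%. Over the other settings tried, E2f1 passed in 11 of 16, Hmgb2 in 9 of 16 and Cdk6 in 8 of 16.

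Elsewhere few of these genes passed. In macrophages 106 of 141 were higher in old libraries and 0 passed in edgeR. In T cells 39 of 124 and in endothelial cells 20 of 88 were higher and 0 passed. E2f2 rose over all kept cells, from 2.60, 2.10, 2.53 and 2.11 CPM to 5.00, 5.93 and 6.02 CPM (1.27, SE 0.22, edgeR adjusted p = 0.0389). It was 1 of 142 listed genes tested there (0.704%), against 1.62% of all genes. That sum also moves with the mix of classes. Within classes its log2 fold change was -0.59 in progenitors, -0.43 in dendritic cells, 0.20 in macrophages and 0.89 in B cells, and none of these passed. Lmnb1, lamin B1 of the nuclear envelope, rose in B cells from 9.56, 21.6, 25.1 and 41.6 CPM to 78.0, 111 and 73.8 CPM (1.81, SE 0.33, edgeR adjusted p = 0.0118). Neither E2f2 nor Lmnb1 overlapped between ages. Every old library lay above every young one for 9.74% of all genes in all kept cells and 4.68% in B cells. The 2 genes passed in 7 of 15 and 12 of 15 other settings. Between macrophages and progenitors the age effect differed for E2f1 (0.93, SE 0.20, edgeR adjusted p = 0.0469) and Cdk6 (-1.58, SE 0.31, edgeR adjusted p = 0.0295), which passed in 7 of 14 and 9 of 14 other settings.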

How the data were processed

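Single-cell RNA was measured in 4 young and 3 old libraries. The deposited values are raw UMI counts per gene and barcode, made by the authors with Cell Ranger 4.0.0 on mm10, per the submitters' processing notes. Kept barcodes had 500 or more UMIs, 300 or more genes and no more than 15% mitochondrial UMIs, and the highest Scrublet scores (0.8% for each 1000 barcodes in a library) were removed as doublets. Cells were clustered in Python 3.11.15 with scanpy 1.11.5 and leidenalg 0.10.2 (2000 variable genes, 30 components, 15 neighbours, resolution 1), leaving out 241 cell cycle and histone genes. Counts were summed per library and class where a library had at least 20 cells, filtered with filterByExpr, scaled with TMM and tested with edgeR 4.0.16 (quasi-likelihood, Benjamini-Hochberg) in R 4.3.3. DESeq2 1.42.0, other filters, scalings and clusterings, and libraries left out in turn were alternatives. The members, lists and tests were chosen with earlier results of these data known. Values per library were given for Mki67, Top2a, Cdk1, Ccnb1, Birc5, Pcna, Mcm5, Rrm2, Tyms and Stmn1 in macrophages and progenitors, for members that passed, and for the 2 members of lowest p in each direction and class. A few further values (Nusap1 and Ube2c in progenitors, Mki67 in endothelial cells, the Pcna ratios and single clusters) were chosen after they were seen. Deviations of same-numbered young and old libraries correlated at 0.135, 0.160 and 0.167 over all kept cells, and at -0.022, -0.0046 and -0.029 in progenitors, and the labels name no shared batch or day. No pair of libraries shared more than 23 barcodes, and no pair agreed within sampling noise (chi-square per degree of freedom of 98.5 or more). Classes with few cells in a library give imprecise values. The scripts were tested on simulated data.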

Additional observations from a re-analysis of the deposited data

Results flagged for a closer look

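In 77 groups of 4 young libraries checked, 14 had a library far from the other 3. Chance gives about 1 in 20 if groups are independent. These groups share libraries and cells, so their count cannot be set against that rate. Most of these concerned young replicate 3. In endothelial cells it stood apart in the summed G2/M level (907 CPM, unscaled), the share of cells with an Mki67 UMI (4.35%), the share of G2/M cells (8.70%), Stmn1 (257 CPM) and Cdk1 (51.3 CPM). In mural cells it stood apart in the summed G2/M level (1355 CPM) and Stmn1 (135 CPM). It also had the largest share of G2/M cells in progenitors (0.823%) and in B cells (1.15%), and stood apart for Mcm5 in progenitors (6.07 CPM) and for Mcm5 (25 CPM) and Rrm2 (13.1 CPM) in macrophages. Young replicate 1 stood apart for Cdt1 in T cells (11.4 CPM) and for Rrm2 in dendritic cells (77.2 CPM).

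The age effect differed between classes by edgeR's interaction test for 5 members. Macrophages against progenitors gave differences of log2 fold changes of 1.51 for Top2a, 1.83 for Stmn1, 1.63 for Birc5 and 2.72 for Hmmr. Endothelial cells against progenitors gave -1.63 for Mcm5.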

How the results depend on the processing

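Members called with age (0 in each group fitted) became 1 in all kept cells and 4 in progenitors with DESeq2. With no expression filter they became 1 in progenitors, 2 in B cells, 8 in monocytes and 2 in mural cells, and with clustering at resolution 2 they became 1 in B cells. Leaving out 1 library gave 0 to 3 in progenitors (3 without young replicate 1) and 0 to 1 in B cells (1 without old replicate 3). The replicate block gave 0 members in every group fitted and could not be fitted for monocytes. The block pairs libraries by the replicate number in their titles and leaves out young replicate 4, which has no old partner. Over all genes the calls went from 258 to 73 in progenitors and from 267 to 156 in all kept cells. The part of the block and that of the library left out were not separated.

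Members whose age effect differed between macrophages and progenitors (4) numbered 0 to 5 with 1 library left out, 2 with young replicates 1 and 3 both left out (chosen after seeing the data), 8 with no expression filter, 1 with doublets kept, 8 with stricter cell filters and 2 at resolution 2. Between endothelial cells and progenitors (1) they numbered 0 to 2 with 1 library left out.

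Differences in shares of cells are old minus young in percentage points. Without thinning, the share of G2/M cells differed by -2.32 in all kept cells and -1.52 in progenitors. The share with an Mki67 UMI turned to 0.194 in all kept cells at 4000 UMIs, to -0.472 without thinning and -0.239 at 4000 UMIs in progenitors, to 0.0168 with doublets kept and 0.525 with stricter filters in macrophages, and to 0.268 without thinning and 0.314 at 4000 UMIs in B cells. With 1 library left out it ranged from -0.382 to 0.351 in all kept cells, -0.0140 to 0.125 in progenitors and -0.822 to 0.548 in macrophages.

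Reversed log2 fold changes, none past the threshold, were as follows. With 1 library left out the ranges were -0.59 to 0.16 for Cenpf in all kept cells, -0.46 to 0.11 for Rrm2 in progenitors, and in macrophages -0.39 to 0.64 for Mki67, -0.32 to 0.82 for Top2a, -0.36 to 0.44 for Cdk1, -0.084 to 0.56 for Ccnb1 and -0.056 to 0.86 for Birc5, and -0.42 to 0.13 for Mcm2 in B cells. With young replicates 1 and 3 left out, Cenpf had 0.24 in all kept cells, and Mcm3 and Mcm2 had -0.057 and 0.40 in B cells. With doublets kept, Mki67 had 0.12, Ccnb1 0.013 and Rrm2 0.22 in progenitors. Mcm2 in B cells had 0.017 with thinned counts and 0.032 at resolution 2, and Rrm1 in mural cells 0.065 with stricter filters. The cause was not tested in any case. Few cells per class and library (71 endothelial cells in young replicate 3) limit these values.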
